A study of Homo sapiens with 6 samples.

Results

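The genes described here encode the proteins that define introns and carry out splicing: the SR proteins (SRSF genes), the heterogeneous nuclear ribonucleoproteins (hnRNPs, HNRNP genes), the subunits of the SF3A and SF3B complexes of the U2 snRNP (SF3A and SF3B genes) and the proteins of the small nuclear ribonucleoproteins (snRNPs, SNRP genes). They were chosen by symbol from the 26255 genes measured. The choice, and that of the roles used to group them, was made with earlier results of these data known. Of 65 rows whose symbols matched, 5 pseudogenes were left out, and 60 remained. These were 58 protein-coding genes (12 SR, 25 hnRNP, 9 SF3 and 12 snRNP), the antisense RNA HNRNPU-AS1 and the readthrough row HNRNPUL2-BSCL2. All 6 samples were 22RV1 cells, a human cell line of castration-resistant prostate cancer (CRPC), grown in androgen-containing full medium. For 24 h, 3 samples received DMSO, the solvent, and 3 received 10 nM bruceantin (BCT), a quassinoid natural product known as an inhibitor of protein synthesis. The study used this comparison to find the genes whose expression BCT changes. Nothing in the labels says that the 3 samples of a group came from separate cultures, so p-values measure the spread between these samples, which may be technical, and a single cell line stands for the disease.

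Splicing removes introns from pre-mRNA in a spliceosome that forms anew on each intron. The U1 snRNP pairs with the 5′ splice site and the U2 snRNP, with SF3A and SF3B, with the branch site. The U1, U2, U4 and U5 snRNPs each hold a ring of Sm proteins around their snRNA. SR proteins, which carry an RNA-binding domain and a tail rich in arginine and serine, mostly bind exons and promote their inclusion. The hnRNPs coat nascent RNA and often favour exon skipping, and many also act in RNA export, stability or translation. The files give 1 value per gene, so the splice forms of a gene, including the unproductive transcripts with which many SR and hnRNP genes limit their own expression, could not be told apart.

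The values were FPKM, fragments scaled both by transcript length and by sequencing depth. As such values hold no read numbers, depth could be judged only between samples, where the steps between low values put it at 0.871 to 1 in the DMSO samples and 1.07 to 1.15 in the BCT samples, relative to DMSO replicate 1. The FPKM sum was 1169649 to 1572321 per DMSO sample and 757534 to 799838 per BCT sample, and 1 small RNA gene, MIR6087, held between 43.5% and 55.3% of it in DMSO and at most 32.5% in BCT. BCT replicate 1 was the BCT sample closest to the DMSO samples in 33 of the 52 members tested (63.5%) and in 69.1% of all genes tested. Replicates of a member were close to each other, with a median coefficient of variation of 3.45% in DMSO (range 0.487% for HNRNPUL1 to 8.21% for SF3B3) and 4.3% in BCT (range 0.472% for HNRNPA1L2 to 13.4% for SRSF5).

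Promoter sequences from RefSeq (GRCh38.p14) were at hand for 48 of the 52 members tested, from 250 bases before to 50 after the gene start. HNRNPA1, SF3B3, SNRPD1 and SRSF2 were the 4 without one. The 200 bases before the start are shown for the gene of each family with the largest change among those with a promoter (HNRNPA3, SNRPA, SRSF5 and SF3A1) and for 2 further Sm genes called lower (SNRPB and SNRPD3). They read 5′ to 3′ on the strand of the gene, and capitals mark the letters of the E-box (CACGTG), the CCAAT box (CCAAT) and an ETS motif (CCGGAAG), searched on both strands. The positions are chr2:177212594-177212793, plus strand for HNRNPA3, chr19:40751003-40751202, plus strand for SNRPA, chr14:69766942-69767141, plus strand for SRSF5, chr22:30356895-30357094, minus strand for SF3A1, chr20:2470790-2470989, minus strand for SNRPB and chr22:24555450-24555649, plus strand for SNRPD3.
HNRNPA3: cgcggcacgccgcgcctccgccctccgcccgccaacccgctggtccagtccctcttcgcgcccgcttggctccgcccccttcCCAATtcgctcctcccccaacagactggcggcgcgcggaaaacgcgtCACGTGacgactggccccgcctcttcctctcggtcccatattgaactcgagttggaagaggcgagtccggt
SNRPA: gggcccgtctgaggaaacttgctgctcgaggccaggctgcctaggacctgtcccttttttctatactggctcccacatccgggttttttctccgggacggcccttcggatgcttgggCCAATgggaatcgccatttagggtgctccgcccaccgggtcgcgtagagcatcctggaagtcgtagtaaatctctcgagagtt
SRSF5: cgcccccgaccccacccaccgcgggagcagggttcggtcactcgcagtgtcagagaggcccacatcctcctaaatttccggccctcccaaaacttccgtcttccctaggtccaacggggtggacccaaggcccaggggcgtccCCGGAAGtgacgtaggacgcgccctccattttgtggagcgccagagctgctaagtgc
SF3A1: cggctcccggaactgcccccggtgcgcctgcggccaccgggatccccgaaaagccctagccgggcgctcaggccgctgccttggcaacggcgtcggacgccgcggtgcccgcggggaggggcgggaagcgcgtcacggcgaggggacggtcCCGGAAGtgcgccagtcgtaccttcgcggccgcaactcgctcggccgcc
SNRPB: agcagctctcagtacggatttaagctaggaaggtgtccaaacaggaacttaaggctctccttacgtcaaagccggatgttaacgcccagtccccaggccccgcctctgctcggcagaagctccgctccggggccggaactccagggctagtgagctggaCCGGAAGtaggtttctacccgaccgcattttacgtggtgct
SNRPD3: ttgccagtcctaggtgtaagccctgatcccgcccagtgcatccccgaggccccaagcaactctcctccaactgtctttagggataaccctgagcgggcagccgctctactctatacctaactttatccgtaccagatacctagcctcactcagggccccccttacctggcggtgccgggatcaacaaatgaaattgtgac
HNRNPA3 held both a CCAAT box, 118 bases before the start, and an E-box, 71 bases before it. SNRPA held a CCAAT box 83 bases before the start. The ETS letters stood 57 bases before the start of SRSF5, 49 before that of SF3A1 and 41 before that of SNRPB, and the SNRPD3 stretch held none of the 3 motifs.

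Across the whole 300-base window, the ETS letters were in 6 of 8 SF3 promoters (75%) and 7 of 10 snRNP promoters (70%), against 2 of 10 SR promoters (20%), 3 of 20 hnRNP promoters (15%), 10.7% of all 27305 promoters and 20% of the 9455 promoters of genes tested. The CCAAT box was in 13 of 20 hnRNP promoters (65%), 4 of 10 snRNP promoters (40%), 2 of 10 SR promoters (20%) and 1 of 8 SF3 promoters (12.5%). It was in 35.7% of all promoters and 37.4% of those of genes tested. The E-box was in 7 of 20 hnRNP promoters (35%), in SF3B1 alone among the SF3 promoters, and in 0 of 10 SR and 0 of 10 snRNP promoters. It was in 7.43% of all promoters and 10.4% of those of genes tested. The SF3 and snRNP families, which shared the ETS letters, had median log2 fold changes on opposite sides of 0 in the values as deposited. The 18 members with the ETS letters had a median log2 fold change of -0.02 and the 30 without them -0.23, against 0.11 and -0.08 for the genes tested. For the CCAAT box the medians were -0.41 in 20 members with it and -0.06 in 28 without, against -0.11 and 0.01 for the genes tested. These are matches of letters and no test was run on them.

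Of the 58 protein-coding members, 52 had a mean of at least 1 FPKM and were tested. The 6 below it were SRSF12 (0.39 to 0.567 FPKM), HNRNPCL1, HNRNPCL2, HNRNPCL3 and HNRNPCL4 (at most 0.136 FPKM in any sample) and SNRPN. Fold changes are BCT against DMSO on log2(FPKM + 0.1), which understates changes of low genes, tested with limma with Benjamini-Hochberg adjustment over 12729 genes. A gene was called where the log2 fold change exceeded 0.85 in size and the adjusted p was below 0.05. "Rose" and "fell" are used of genes past that adjusted p, called or not. By this rule 7 members (13.5%) were called lower, where the background was 17.8% of all genes tested, and 0 were called higher, where the background was 13.9%. The members called were HNRNPA1, HNRNPA3, HNRNPAB, HNRNPA2B1, SNRPA, SNRPB and SNRPD3. Their listed spans on hg19, introns included, are chr12:54674488-54679030 (HNRNPA1), chr2:178077422-178088685 (HNRNPA3), chr5:177631508-177659823 (HNRNPAB), chr7:26229556-26240413 (HNRNPA2B1), chr19:41256759-41271297 (SNRPA), chr20:2442281-2451499 (SNRPB) and chr22:24936391-24970932 (SNRPD3). On the adjusted p alone, 28 members fell (53.8%, background 42.8%), 14 rose (26.9%, background 39.3%) and 10 did not pass. At an unadjusted p of 0.05 the counts were the same 28 and 14. Every BCT sample was below every DMSO sample in 30 members (57.7%, background 44.3%) and above in 15 (28.8%, background 41%), and 7 overlapped. The share called was below the background in both directions, and the share that fell on the adjusted p alone was above it.

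The median log2 fold change of the 52 members was -0.23, against -0.04 for all genes tested, and it differed by family: -0.10 for SR, -0.23 for hnRNP, 0.19 for SF3 and -0.64 for snRNP. Changes were mostly modest. The lower and upper quartiles of the members were -0.62 and 0.21, against -0.63 and 0.51 for all genes, and the range was -1.76 (HNRNPA1) to 0.83 (SRSF11). Just inside the threshold lay HNRNPA2B1 (-0.88), SNRPB (-0.91) and SNRPD3 (-0.91). Just outside lay SRSF5 (-0.84), SRSF11 (0.83), SNRPE (-0.82) and SRSF9 (-0.79).

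**Figure D1:**
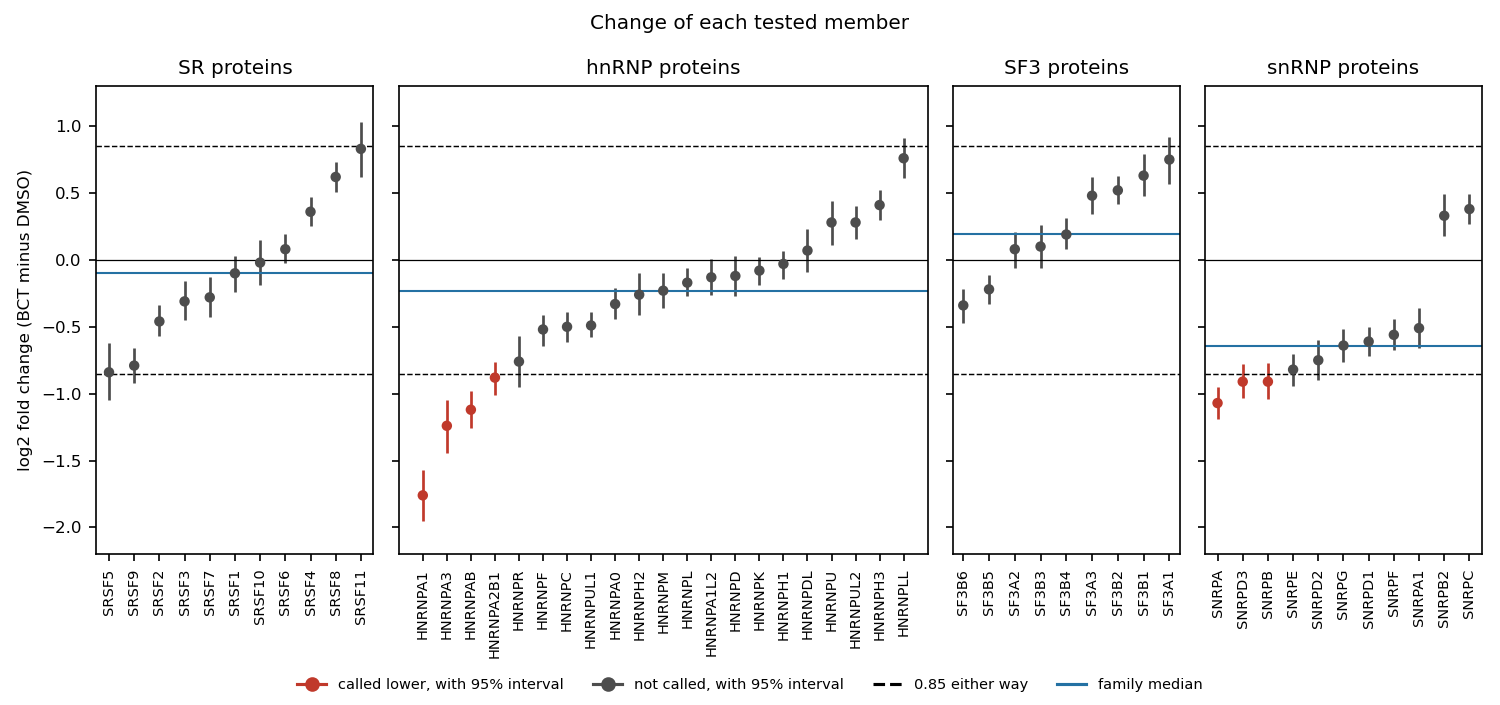
Log2 fold change (BCT minus DMSO, on log2 FPKM + 0.1) of each of the 52 members tested, by family, with the 95% interval from limma (n = 3 per group). Red marks the 7 genes called lower, dashed lines stand at 0.85 either way, and the blue line is the family median. The 7 Sm genes, from SNRPD3 to SNRPF, lie between -0.91 and -0.56, and SNRPB2 and SNRPC alone in their family lie above 0.

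The direction of the SR, hnRNP and snRNP medians depends on how the samples are scaled, since the FPKM sums differ. Rescaled to the same sum, the median of all genes moved to 0.720 and the medians became 0.66 for SR, 0.54 for hnRNP, 0.96 for SF3 and 0.13 for snRNP. Rescaled to the same sum without MIR6087, they were 0.28, 0.15, 0.58 and -0.25, with all genes at 0.344. HNRNPA1 alone remained called lower under the first, and HNRNPA1 and HNRNPA3 under the second, which is 1.92% and 3.85% of members against 5.25% and 9.49% of all genes. The 16 and 7 members called higher were 30.8% and 13.5%, against 44.1% and 26.5% of all genes. Under these 2 scalings the SR and hnRNP medians turned positive, the snRNP median did so under the first alone, and the SF3 median stayed positive. Scaled instead to the same median, SR was at -0.12, hnRNP at -0.25, SF3 at 0.18 and snRNP at -0.65. Scaled to the same upper quartile, they were at -0.06, -0.19, 0.24 and -0.59, so each family kept its direction under both. A scaling moves all genes of a sample alike, so the order of the medians, SF3 highest, then all genes, SR, hnRNP and snRNP, cannot change with it. Rising and falling in what follows refer to the values as deposited, and ratios between members of a sample, which do not depend on the scaling, are given beside them.

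**Figure D2:**
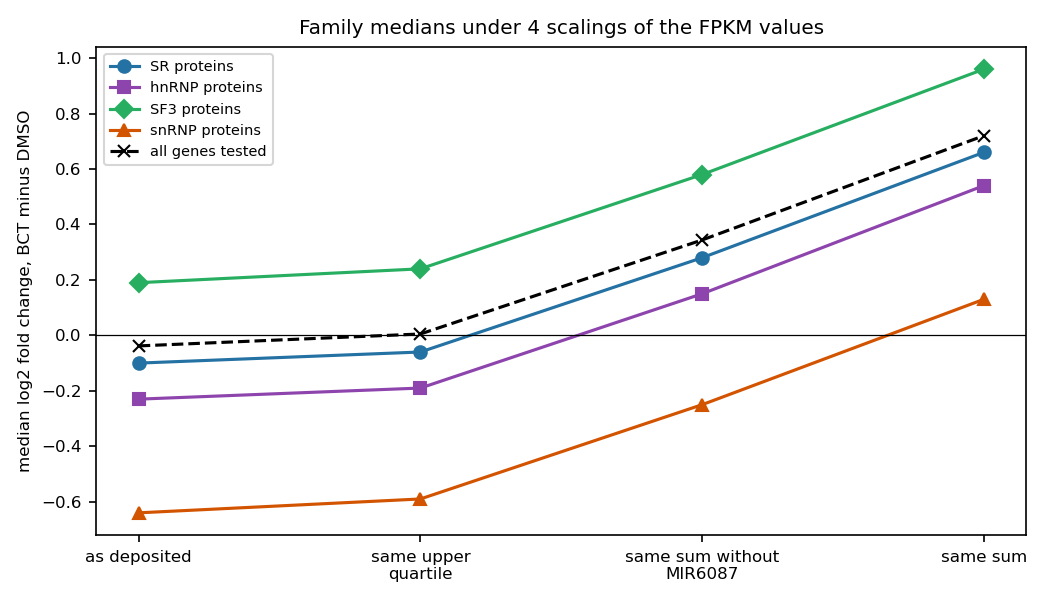
Median log2 fold change (BCT minus DMSO, vertical axis) of the 4 families and of all genes tested under 4 scalings of the FPKM values (horizontal axis). The snRNP median moves from -0.64 to 0.13 and the SF3 median from 0.19 to 0.96, while all genes move from -0.04 to 0.720, as a scaling shifts all genes alike.

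The Sm core fell as a group. The 7 Sm genes tested (SNRPB, SNRPD1, SNRPD2, SNRPD3, SNRPE, SNRPF and SNRPG) encode the 7 proteins of the ring on the spliceosomal snRNAs. Each of the 7 fell (background 42.8%), with every BCT sample below every DMSO sample (background 44.3%). Their log2 fold changes ran from -0.91 to -0.56 with a median of -0.75, a narrow band beside the other families. Of the 7, 2 were called lower (background 17.8%). SNRPB, which encodes SmB/B′, had 368.3, 353.1 and 372.5 FPKM with DMSO and 208.8, 192.8 and 182.6 FPKM with BCT (log2 fold change -0.91, standard error 0.060, limma adjusted p = 2.7e-06). All BCT samples were lower, at 53.4% of the DMSO mean.

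SNRPD3 (SmD3) had 73.3, 67.6 and 71.5 FPKM with DMSO and 39.4, 37.1 and 36.5 FPKM with BCT (log2 fold change -0.91, standard error 0.054, adjusted p = 1.7e-06). It shares its listed position with the neighbouring gene GUCD1, and the library kit does not mark strand. SNRPD2 (SmD2), at the highest level of the family, had 463.8, 429.5 and 476.8 FPKM with DMSO and 286.9, 278.0 and 251.7 FPKM with BCT. It fell by 0.75 on the log2 scale (95% interval -0.90 to -0.60) and was not called, as the size missed the threshold. SNRPE fell from 128.4 ± 4.38 to 72.7 ± 3.31 FPKM (SD, n = 3 each), SNRPG from 335.6 ± 11 to 215.8 ± 8.69 FPKM, SNRPF from 261.9 ± 6.34 to 178.0 ± 6.65 FPKM and SNRPD1 from 94.2 ± 2.72 to 61.6 ± 1.58 FPKM. The ring holds 1 copy of each protein, and the levels of their mRNAs in DMSO spanned 70.8 FPKM (SNRPD3) to 456.7 FPKM (SNRPD2).

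SNRPN, which encodes the SmB-like SmN from an imprinted locus, was listed at 0 in 5 samples and at 0.106 FPKM in BCT replicate 2. The row of SNURF, the upstream reading frame of the same transcript, covers the same listed span and held 107.0 to 120.6 FPKM (log2 fold change -0.08, adjusted p = 0.19), so reads of the locus may be listed under that name. No fold change is given for SNRPN.

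Of the 2 U1 proteins in the family, 1 fell and 1 rose. SNRPA, whose protein binds a loop of U1 snRNA, had 82.7, 80.8 and 84.6 FPKM with DMSO and 40.4, 40.4 and 37 FPKM with BCT, the largest fall of the snRNP genes (log2 fold change -1.07, standard error 0.053, adjusted p = 9.5e-07). SNRPC, whose protein stabilises pairing with the 5′ splice site, had 89.9, 87.7 and 91.6 FPKM with DMSO and 116.7, 120.7 and 113.4 FPKM with BCT, a rise of 0.38 (95% interval 0.27 to 0.49, adjusted p = 8.5e-05). Within a sample, SNRPA stood at 0.92, 0.921 and 0.924 times SNRPC with DMSO and at 0.346, 0.334 and 0.327 times with BCT. This ratio varied little between replicates and fell in each BCT sample, whatever the scaling. The third U1-specific protein gene, SNRNP70, whose symbol lies outside the rule, had 103.6 to 105.4 FPKM with DMSO and 60.7 to 62.4 FPKM with BCT (log2 fold change -0.77, adjusted p = 1.4e-06).

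The U2 pair showed the same kind of split. SNRPA1 fell from 80.8 ± 1.79 to 56.9 ± 5.04 FPKM and SNRPB2, its partner on U2 snRNA, rose from 30.2 ± 0.869 to 38.1 ± 3.11 FPKM. The log2 fold changes were -0.51 (adjusted p = 0.00013) and 0.33 (adjusted p = 0.0018). SNRPA1 was 2.62, 2.60 and 2.81 times SNRPB2 with DMSO and 1.81, 1.39 and 1.32 times with BCT. The groups did not overlap, and BCT replicate 1 lay nearest to DMSO. Of the SNRPA1 transcript, 26.4% of 100-base stretches also occur elsewhere in the genome, so reads could have been shared with copies. These pairs were chosen for their opposite changes, so the ratios are descriptions without a test.

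The SF3 genes, by contrast, had 0 genes called in either direction by limma (backgrounds 17.8% lower and 13.9% higher). On the adjusted p, 5 of 9 rose (55.6%, background 39.3%) and 2 fell (22.2%, background 42.8%), the same at an unadjusted p of 0.05. SF3A1, a subunit that helps bring the U2 snRNP to the branch site, showed the largest change of the family. It had 29.4, 32.5 and 30.3 FPKM with DMSO and 46.5, 54.8 and 53.8 FPKM with BCT (log2 fold change 0.75, standard error 0.074, adjusted p = 2.4e-05). All BCT samples were above the DMSO samples, at 168% of the mean. SF3A3 rose from 58.0 ± 2.83 to 81.0 ± 4.86 FPKM, and SF3A2 was at 57.6 ± 1.70 and 60.8 ± 3.79 FPKM with overlapping groups (adjusted p = 0.25).

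SF3B1, the branch-site subunit and the target of several splicing inhibitors, rose from 83.2 ± 2.88 to 129.2 ± 10.4 FPKM (log2 fold change 0.63). SF3B2 rose from 101.4 ± 1.80 to 145.8 ± 4.48 FPKM and SF3B4 from 92.7 ± 0.719 to 106.0 ± 5.01 FPKM, and SF3B3 overlapped between groups (27.1 ± 2.22 and 28.9 ± 1.22 FPKM). The 2 members of the family that fell were both small subunits. PHF5A, another small SF3B subunit, whose symbol lies outside the rule, rose. It had 43.6 to 46.6 FPKM with DMSO and 49.9 to 54.1 FPKM with BCT (log2 fold change 0.23, limma adjusted p = 0.004). SF3B6 (p14), which contacts the branch-site adenosine, had 136.4, 125.7 and 129.0 FPKM with DMSO and 99.5, 100.9 and 107.9 FPKM with BCT (log2 fold change -0.34, adjusted p = 4e-04). SF3B5, the most abundant SF3 mRNA, had 201.9, 201.0 and 210.3 FPKM with DMSO and 182.2, 175.2 and 169.5 FPKM with BCT (-0.22, adjusted p = 0.0029). Rescaled to the same sum, both turned positive, at 0.43 for SF3B6 and 0.55 for SF3B5, below the median of all genes there. The geometric mean of the Sm genes was 2.83, 2.60 and 2.79 times that of the SF3 genes with DMSO and 1.51, 1.33 and 1.32 times with BCT. This ratio of mRNAs for the Sm ring, which U2 shares with other snRNPs, to those for SF3 was lower in all BCT samples. The 2 groups had medians on opposite sides of 0, so a lower ratio follows from their choice, and it was not tested.

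No SR gene was called by limma in either direction (backgrounds 17.8% lower and 13.9% higher). On the adjusted p, 5 fell (45.5%, near the background of 42.8%) and 3 rose (27.3%, background 39.3%), also at an unadjusted p of 0.05. Changes in the family ran both ways. SRSF5, an SR protein known to be induced by growth signals, had 68.0, 73.5 and 75.2 FPKM with DMSO and 46.8, 36.7 and 38.2 FPKM with BCT. The fall of 0.84 on the log2 scale (standard error 0.092, adjusted p = 4.3e-05) stopped just short of the threshold. SRSF9, at the highest level of the family, had 358.7, 324.9 and 353.2 FPKM with DMSO and 207.9, 195.9 and 196.5 FPKM with BCT (-0.79, standard error 0.056, adjusted p = 3.6e-06). Both stood clearly apart between groups, with SRSF5 in BCT replicate 1 closest to DMSO.

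SRSF11 rose most. This SR-related protein had 54.3, 55.9 and 51.7 FPKM with DMSO and 82.8, 102.5 and 103.9 FPKM with BCT (0.83, standard error 0.089, adjusted p = 3.6e-05). It was called higher without BCT replicate 1, without DMSO replicate 2 and when samples were scaled to the same upper quartile (0.87), the same sum (1.60) or the same sum without MIR6087 (1.22). SRSF5 was called lower without BCT replicate 1, without DMSO replicate 1 and when scaled to the same median. SRSF11 stood at 0.799, 0.76 and 0.688 times SRSF5 with DMSO and at 1.77, 2.79 and 2.72 times with BCT, so that the order of the 2 mRNAs changed. As the pair joins the largest rise and the largest fall of the family, a shift of this ratio follows from the choice, and it was not tested. SRSF8, a retrotransposed relative of SRSF2, rose from 15.8 ± 0.210 to 24.2 ± 0.586 FPKM and SRSF4 from 39.2 ± 0.967 to 50.4 ± 1.34 FPKM.

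SRSF2, which reads exonic enhancers, fell from 128.8 ± 4.13 to 93.8 ± 3.63 FPKM, SRSF3 from 162.1 ± 8.08 to 131.2 ± 8.79 FPKM and SRSF7, which with SRSF3 couples splicing to mRNA export, from 92.4 ± 3.18 to 76.2 ± 5.74 FPKM. SRSF1, the founding member of the family, was at 81.8 ± 3.80 and 76.2 ± 4.21 FPKM (log2 fold change -0.10, 95% interval -0.24 to 0.03, adjusted p = 0.14). SRSF6 was at 71.8 ± 1.14 and 76.2 ± 1.53 FPKM (adjusted p = 0.11) and SRSF10 at 38.6 ± 0.749 and 38.2 ± 3.71 FPKM (adjusted p = 0.81). For these 3 genes the 95% intervals held 0. The row of SRSF10 is placed on an unlocalised contig of chromosome 1, and 78.4% of 100-base stretches of its transcript occur elsewhere in the build, so its value may be split.

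The hnRNP genes called all had symbols beginning with HNRNPA, taken here as the A/B group by name and not by sequence. All 6 A/B genes had every BCT sample below every DMSO sample (background 44.3%), and their median was -1.0. Of the 6, 5 fell (background 42.8%) and 4 were called lower (background 17.8%). The other 15 hnRNP genes tested had a median of -0.12, with 0 called in either direction by limma (backgrounds 17.8% lower and 13.9% higher). Of these 15, 7 fell (background 42.8%) and 4 rose (background 39.3%), the same at an unadjusted p of 0.05. The difference between these subgroups was not tested. HNRNPA1, a shuttling protein that represses exons and the most abundant mRNA of all members, had 1077, 966.2 and 1007 FPKM with DMSO and 335.8, 295.1 and 272.6 FPKM with BCT. The change of -1.76 on the log2 scale (standard error 0.082, adjusted p = 7.9e-07) was the largest of the 52. The BCT mean was 29.6% of the DMSO mean, and it was the only member called lower when the samples were rescaled to the same sum. The summed mean level of the 52 members was 8523 FPKM with DMSO and 6212 FPKM with BCT, and HNRNPA1 made up 31% of the difference.

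HNRNPA1 has many processed copies in the genome. Of its transcript, 33.2% of 100-base stretches occur elsewhere, at 19 places, and the pseudogene row HNRNPA1P10, left out of the members, carries the listed span of HNRNPA1 itself. That row had 516.6, 445.2 and 493.8 FPKM with DMSO and 154.5, 136.8 and 122.7 FPKM with BCT (log2 fold change -1.82). HNRNPA1 was 2.04 to 2.17 times this row with DMSO and 2.16 to 2.22 times with BCT, a ratio that hardly differed between groups. Its level is therefore uncertain, since a part may be listed under the copy, and the 2 rows changed alike. HNRNPA1L2, an intronless relative with 30.8% of its stretches shared, was at 7.46 ± 0.307 and 6.83 ± 0.0322 FPKM (log2 fold change -0.13, adjusted p = 0.073).

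HNRNPA3, a close paralog, had 34.5, 33.3 and 32.3 FPKM with DMSO and 15.4, 14.6 and 12.3 FPKM with BCT (-1.24, standard error 0.084, adjusted p = 3.1e-06), with 18.8% of stretches shared at 9 places. HNRNPAB, which also binds DNA as a transcriptional regulator, had 282.1, 267.7 and 264.1 FPKM with DMSO and 135.5, 118.9 and 120.2 FPKM with BCT (-1.12, standard error 0.063, adjusted p = 1.4e-06), with no shared stretch but a listed span in common with PHYKPL. HNRNPA2B1, known for exon repression and for binding modified RNA, had 760.7, 729.0 and 678.6 FPKM with DMSO and 383.5, 400.7 and 388.9 FPKM with BCT. The change of -0.88 on the log2 scale (standard error 0.056, adjusted p = 2.2e-06) was -0.85 without DMSO replicate 1 and -0.84 when scaled to the same upper quartile, and it was not called in either. HNRNPA0, which has a single coding exon and is better known for binding AU-rich mRNAs, fell from 114.9 ± 4.6 to 91.6 ± 1.97 FPKM.

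Among the remaining hnRNPs, HNRNPR fell from 48.7 ± 1.72 to 28.8 ± 3.43 FPKM (log2 fold change -0.76) and was called only without BCT replicate 1. HNRNPF fell from 179.5 ± 5.77 to 124.9 ± 4.05 FPKM, HNRNPC, which binds uridine tracts, from 440.6 ± 16.1 to 310.9 ± 6.10 FPKM and HNRNPUL1 from 105.7 ± 0.515 to 75.5 ± 1.16 FPKM. HNRNPH1 (221.6 ± 6.44 and 216.5 ± 4.97 FPKM), HNRNPD (185.9 ± 7.20 and 171.8 ± 12.9 FPKM), the latter known as AUF1 for its part in mRNA decay, and HNRNPDL (53.9 ± 1.87 and 56.7 ± 5.06 FPKM) overlapped between groups. HNRNPK, a poly(C)-binding protein, was at 339.6 ± 10.5 and 320.6 ± 3.80 FPKM (log2 fold change -0.08, 95% interval -0.19 to 0.02, adjusted p = 0.13). HNRNPA1 was 2.82 to 3.09 times HNRNPK with DMSO and 0.841 to 1.06 times with BCT.

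HNRNPLL, a paralog of HNRNPL known for regulating CD45 splicing in lymphocytes, rose most, from 15.9, 15.2 and 15.4 FPKM with DMSO to 24.1, 26.9 and 27.9 FPKM with BCT (0.76, standard error 0.065, adjusted p = 1e-05). HNRNPL itself, far more abundant, fell from 296.6 ± 6.93 to 264.0 ± 5.53 FPKM (-0.17). HNRNPH3 rose from 130.4 ± 5.26 to 173.2 ± 4.12 FPKM, HNRNPU, a nuclear scaffold protein, from 133.7 ± 10.2 to 161.7 ± 9.71 FPKM and HNRNPUL2 from 28.2 ± 1.26 to 34.2 ± 0.634 FPKM. HNRNPU-AS1 was at 26.5 ± 0.0278 and 25.3 ± 1.65 FPKM (adjusted p = 0.28). The HNRNPUL2-BSCL2 row was at 28.7 ± 0.973 and 43.6 ± 2.41 FPKM (log2 fold change 0.60). The readthrough row shares its listed span with HNRNPUL2 and BSCL2, and its reads cannot be told apart from theirs. The listed span of HNRNPU-AS1 lies apart from that of HNRNPU and coincides with that of COX20, from which it cannot be told apart without strand.

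Members were abundant, with a median of 93.5 FPKM in DMSO against 11.9 FPKM for all genes tested. Across the 52 members, log2 fold change correlated with log2 mean FPKM at r = -0.39 (all genes -0.08), with log2 transcript length at r = 0.26 (all genes 0.11) and with the number of exons at r = 0.35 (all genes 0.05). These are descriptions across genes of the same 6 samples, which are not independent replicates. The 17 members with a transcript under 2000 bases had a median of -0.56, with 14 below 0 (82.4%). The 35 longer ones had a median of -0.08, with 20 below 0 (57.1%). Among all genes with a transcript length the medians were -0.17 for 2986 short genes, 58.9% of them below 0, and 0.02 for 8555 longer genes, 49.4% of them below 0. Of the members tested, 39 had under 1% of their 100-base stretches elsewhere in the genome and 7 had over 10%, and 18 of the protein-coding members share a listed span with another row.

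Over 7 lists of splicing genes outside the families, 132 of 135 genes were tested, with a median of 0.27. Of these, 7 were called lower (5.3%, background 17.8%) and 19 higher (14.4%, near the background of 13.9%). None of the 40 spliceosome factors was called lower by limma (background 17.8%). On the adjusted p, 6 fell (background 42.8%) and 27 rose (background 39.3%), and at an unadjusted p of 0.05 the counts were 6 and 28. By the full rule 6 were called higher (15%, near the background of 13.9%): SNW1, a factor of the catalytic spliceosome (log2 fold change 1.35), CWC22 (1.06), USP39 (1.06), SNRNP27 of the tri-snRNP (0.99), DHX16 and PRPF38A. SNW1 had 53.7, 53.5 and 51.6 FPKM with DMSO and 120.7, 147.1 and 140.2 FPKM with BCT. The list's median was 0.28.

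Of 9 kinases that phosphorylate SR proteins, 4 were called higher (44.4%, background 13.9%) and 0 lower (background 17.8%). The median was 0.75, with 7 rising (background 39.3%) and 2 falling (background 42.8%), the same at an unadjusted p of 0.05. CLK1, which releases SR proteins from nuclear speckles, had 29.6, 27.5 and 31.4 FPKM with DMSO and 80.0, 109.9 and 109.3 FPKM with BCT (1.74, adjusted p = 3.4e-06). CLK4 (1.59), CLK3 (1.36) and SRPK3 (1.03) were the others called. The 2 that fell were CLK2 (-0.38), against the direction of the other CLK genes, and SRPK1 (-0.24), the main cytoplasmic SR kinase.

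Of 17 factors that assemble Sm rings on snRNA, 15 were tested. Of these, 3 were called lower (20%, near the background of 17.8%) and 0 higher (background 13.9%). The median was 0.34, with 6 falling (background 42.8%) and 9 rising (background 39.3%), the same at an unadjusted p of 0.05. The 3 called lower were CLNS1A (-1.17) and WDR77 (-0.89), which act with the methyltransferase PRMT5 on Sm proteins, and GEMIN4 (-1.05) of the SMN complex. PRMT5 itself rose (0.50). CLNS1A had 146.9, 135.3 and 143.7 FPKM with DMSO and 68.0, 61.3 and 60.6 FPKM with BCT. SMN1 and SMN2, near-identical copies, were the 2 not tested. Of 10 LSM genes, which encode Sm-like proteins, LSM4 alone was called lower (-1.24), which is 10% against a background of 17.8%. No LSM gene was called higher by limma (background 13.9%), and the median was -0.18. On the adjusted p, 6 fell (background 42.8%) and 2 rose (background 39.3%), the same at an unadjusted p of 0.05.

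Of 9 proteins of the minor spliceosome, 4 were called higher (44.4%, background 13.9%): ZRSR2 (2.12), SCNM1 (1.22), PDCD7 (1.08) and ZMAT5 (0.88). SNRNP25 (-0.93) was called lower (11.1%, background 17.8%), and the median was 0.74. ZRSR2, which recognises the 3′ splice site of minor introns, had 4.76, 4.58 and 5.11 FPKM with DMSO and 17.8, 23.7 and 22.9 FPKM with BCT. Of 43 other splicing regulators tested among 44, RALY, an hnRNP C relative (-1.24), and NONO (-0.88) were called lower (4.65%, background 17.8%). Those called higher (11.6%, background 13.9%) were RBM5 (1.60), MBNL2 (1.20), SON (1.01), BCLAF1 (0.94) and PTBP2 (0.90). The list's median was 0.19. None of the 6 exon junction complex genes was called by limma (backgrounds 17.8% lower and 13.9% higher). On the adjusted p, 3 fell (background 42.8%) and 2 rose (background 39.3%), the same at an unadjusted p of 0.05. Their median was -0.04.

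The prostate luminal markers were present, and all 7 of the list passed the filter. FOLH1, a surface antigen of prostate cells, was at 30.9 to 35.9 FPKM in DMSO and 39.2 to 45.9 FPKM in BCT. With BCT, KLK2 and KLK3 were called lower and KRT8 and KRT18 higher. Of 8 markers of other cell types (basal, stromal, immune and endothelial), only COL1A1 passed the filter. It was at 1.23 to 1.55 FPKM with DMSO and 5.04 to 6.31 FPKM with BCT, and the 8 summed to 1.41 to 1.63 and 5.37 to 6.89 FPKM, with the other 7 (KRT5, TP63, COL1A2, PTPRC, CD3E, PECAM1 and VWF) at most 0.237 FPKM in any sample. Their part in the results was not tested.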

How the data were processed

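RNA from 6 samples of 22RV1 cells was sequenced with an unstranded kit. The authors trimmed the reads with Trimmomatic (version 0.38 in the submitters' processing notes), aligned them to hg19 with HISAT2 and deposited FPKM values per gene. The methods name StringTie for these values and the submitters' notes HTSeq. The gene annotation is not given in the sources used here, and no reads or counts were used.

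From the deposited FPKM values, log2(FPKM + 0.1) was computed for the 12729 genes averaging 1 FPKM or more and tested in R 4.3.3 by limma (version 3.58.1, mean-variance trend, Benjamini-Hochberg adjustment). Calls needed a log2 fold change beyond 0.85 either way at an FDR under 0.05. Members, lists and roles were chosen with earlier results of these data known. Named in full were all called members and, per family, the most abundant, the largest fall and the largest rise, with at most 4 called genes per list and direction (DHX16, PRPF38A and PTBP2 go beyond this). SNRNP70, PHF5A, PRMT5, SRPK1, CLK2 and the paired ratios were chosen after their values were seen. Shared stretches are exact 100-base matches of a GENCODE transcript to GRCh37. Alternatives covered the pseudocount, filter, scaling, FDR, variance model, replicate block and each sample left out. Positions of genes are those listed on hg19, with 1 added to the start. For 18 of the 65 rows this equals a GENCODE transcript start.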

Additional observations from a re-analysis of the deposited data

How the results depend on the processing

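Each of 19 alternatives was applied to every count and family median. Rescaled to the same FPKM sum, 1 member was called lower (1.92%, all genes 5.25%) and 16 higher (30.8%, all genes 44.1%). The medians were 0.54 for all members, 0.66 for SR, 0.54 for hnRNP, 0.96 for SF3 and 0.13 for snRNP. Among the 132 genes tested in the other lists, 84 were called in either direction. SF3B5 (0.55), SF3B6 (0.43) and SNRPD2 (0.02) reversed. Rescaled without MIR6087, 2 members were called lower (3.85%, all genes 9.49%) and 7 higher (13.5%, all genes 26.5%). The medians were 0.16, 0.28, 0.15, 0.58 and -0.25, 45 of the 132 list genes were called, and SF3B5 (0.17) and SF3B6 (0.04) reversed. Both rescalings shift all genes, by construction, to medians of 0.720 and 0.344. Scaled to the same upper quartile, 1 member was called higher (1.92%, all genes 15.1%) and 6 lower (11.5%, all genes 16.5%). The medians were then -0.18 for all members and -0.19 for hnRNP, and with no filter on low values they were -0.15 and -0.17, with 58 members fitted. Tested against the fold change threshold, which asks for more than passing it, 4 members were called lower (7.69%, all genes 10.9%) and 0 higher (all genes 8.12%). In this setting 13 of the 132 list genes were called. Leaving out single samples gave 7 to 10 members called lower (13.5% to 19.2%, all genes 17.1% to 19.8%). The 10 came without BCT replicate 1, with HNRNPR, SNRPE and SRSF5 added, and their 19.2% stood near the 19.8% of all genes in that setting. Called higher were 0 to 1 members (0% to 1.92%, all genes 13% to 15%), the 1 being SRSF11, without DMSO replicate 2 or BCT replicate 1. The medians were -0.28 to -0.20 for hnRNP, -0.15 to -0.07 for SR, 0.16 to 0.23 for SF3, -0.66 to -0.60 for snRNP and -0.24 to -0.20 for all members. Of 304 results for the 16 named members, 270 kept direction and call, 16 lost and 13 gained a call and 5 reversed.

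Same-numbered DMSO and BCT samples had deviations correlated at 0.116, 0.0328 and 0.0342, and differently numbered ones at -0.115 to 0.074. DMSO replicates 1 and 3 correlated best with the BCT sample of their own number, and DMSO replicate 2 with BCT replicate 3 (0.074). All these correlations were weak, so the numbers were not taken to pair the samples. With the replicate block, 7 members were called lower (13.5%, all genes 17.8%) and 0 higher (all genes 13.9%), the same 7 genes. In this setting 26 of the 132 list genes were called. The depth behind each gene is unknown, which limits what can be said of HNRNPCL1 to HNRNPCL4, SRSF12 and SNRPN.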
